A study of Mus musculus with 6 samples.

Results

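The RhoGEF, RhoGAP and DOCK families were examined in embryonic mouse lungs with and without epithelial *Yap*. Members were the loci of the deposited all-loci table whose symbol began with Arhgef, Arhgap or Dock followed by a digit, and 68 of 24402 loci met this rule. They comprised 25 *Arhgef*, 32 *Arhgap* and 11 *Dock* loci, and each had a locus of its own with no second symbol. Controls were wild-type C57BL/6 embryos, and mutants were C57BL/6 embryos of the genotype *Yap* f/f; *Shh* Cre/+, both at 12.5 days *post coitus* (*dpc*), with 3 whole-lung libraries each. The *Shh* Cre allele sits in the *Shh* gene and acts in the lung epithelium, so *Yap* was kept in the mesenchyme, vessels and blood, which were sequenced together with the epithelium. The comparison asks whether the regulators of small GTPases differ between *Yap*-deficient and control lungs, since the study linked YAP to RhoA signaling and the contractility of the epithelium.

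The GTPases RhoA, Rac and Cdc42 are molecular switches that organize actin, and RhoA drives actomyosin contraction while Rac and Cdc42 drive protrusion and polarity. RhoGEFs of the Dbl type, which include the *Arhgef* genes, load GTPases with GTP and switch them on. DOCK proteins do the same for Rac and Cdc42 through a different catalytic domain, often with an ELMO partner. RhoGAPs, which include the *Arhgap* genes, speed GTP hydrolysis and switch the GTPases off. Members were sorted by the GTPase they are best known to act on, as RhoA, Rac or Cdc42, both, or not assigned.

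The deposited values are FPKM (fragments per kilobase of transcript, scaled to the depth of sequencing), and each genotype has 1 value per locus that stands for its 3 libraries. The spread between libraries, the depth of each library and the precision of a value are therefore unknown, and no difference below was tested. Differences are log2 ratios of *Yap* mutant over control after 0.1 FPKM was added to both values, which makes ratios of low genes smaller. A locus is counted as lower or higher past 1.5-fold when its ratio exceeded that size and the mean of both values was at least 1 FPKM. Of all loci, 12716 reached this mean, with a median log2 ratio of -0.01.

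The tissue was checked with marker lists before the members were read. Epithelial markers were present in both genotypes, but 8 of 13 were lower past 1.5-fold, among them *Nkx2-1*, *Sox2*, *Foxa2* and *Shh*. *Shh* carries the Cre allele in mutants, so its value does not reflect epithelial content alone. *Sftpc* and *Id2* were higher. *Cdh1*, *Epcam* and *Sox9* stayed within 1.5-fold, at log2 ratios of -0.20, -0.43 and -0.22. The median log2 ratio of the 13 markers was -0.63. Their summed level was 620 FPKM in controls and 552 FPKM in mutants. All 7 cardiac muscle markers were higher, with a summed level of 98.3 against 668 FPKM, and 4 of 5 smooth muscle markers were lower, with 265 against 107 FPKM. Of 5 neural markers that reached the minimum, 3 were lower. Endothelial markers summed to 147 and 161 FPKM and leukocyte markers to 46.9 and 47.9 FPKM, with no marker past 1.5-fold in either list. No marker that was found was listed at 0. *Yap1* itself, whose value includes the mesenchyme, read 76.1 FPKM in controls and 65.6 FPKM in mutants. In whole-lung RNA, fewer cells of a type and less RNA per cell cannot be told apart, and the part that cell composition played in the values below was not tested.

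Most members stood at close to the same level in both genotypes. A mean of at least 1 FPKM was reached by 57 of 68 members, of which 13 stood at 20 FPKM or above. Only a few differed further: 3 members were lower past 1.5-fold, *Arhgap8*, *Arhgef19* and *Arhgap24*, and 1 was higher, *Arhgef6*. Over all loci 3.3% were lower and 4.44% were higher past 1.5-fold, so the members' shares of 5.26% and 1.75% lay near the background. Past a smaller log2 ratio of 0.32, 6 members were lower and 4 were higher, against 6.8% and 9.63% of all loci. Large ratios were more frequent at low levels. Between 1 and 5 FPKM, 7.5% of all loci were lower and 11% higher past 1.5-fold, against 2 and 1 of 17 members. Between 5 and 20 FPKM the shares of all loci were 2.48% and 3.02%, against 1 and 0 of 27 members, and from 20 FPKM they were 1.28% and 1.45%, against 0 and 0 of 13 members. Differences in any size were lower for 34 members, or 59.6%, and higher for 23, against 51.8% lower over all loci, and 40 of 57 lay within 0.2 on the log2 scale. The median size of the log2 ratio, regardless of sign, was 0.11 in the members and 0.11 over all loci. All 68 members together summed to 713 FPKM in controls and 697 FPKM in mutants.

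**Figure D1:**
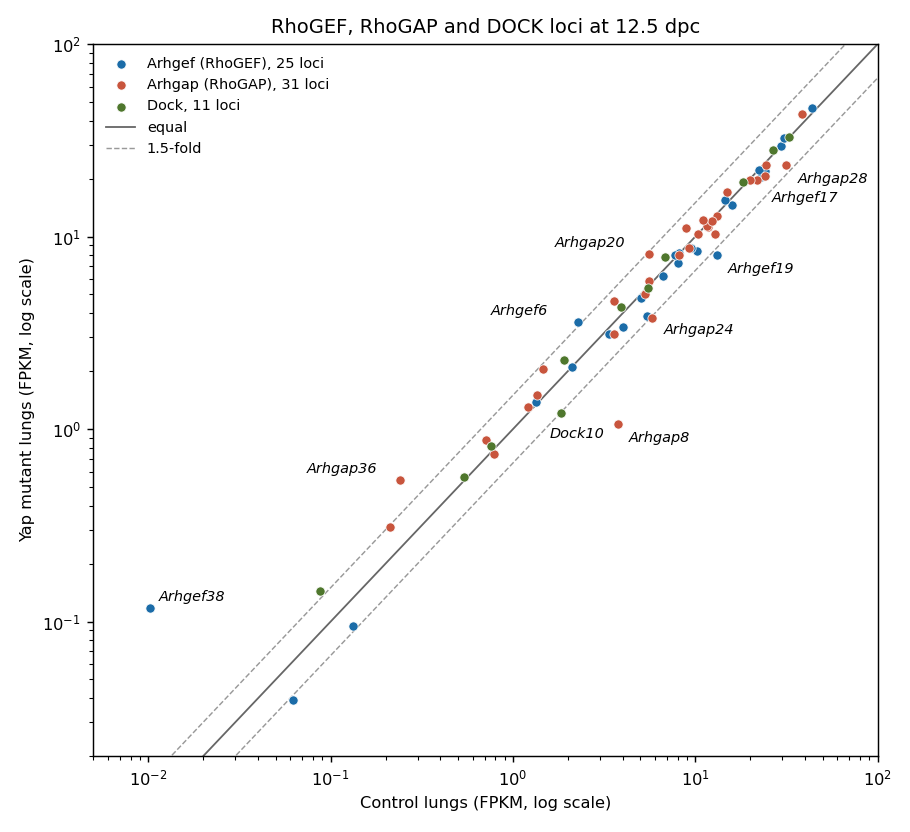
Level of each member in control lungs (x axis, FPKM, log scale) and *Yap* mutant lungs (y axis, FPKM, log scale), 1 point per locus, with lines for equal levels and 1.5-fold differences. Most points lie between the dashed lines. *Arhgap8*, at 3.75 and 1.06 FPKM, lies farthest below them, and *Arhgap40*, listed at 0 in mutants, is not drawn.

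By family, the median log2 ratio was -0.08 over 22 *Arhgef* members, -0.03 over 27 *Arhgap* members and 0.07 over 8 *Dock* members. Lower values outnumbered higher ones by 15 to 7 among *Arhgef* members and by 17 to 10 among *Arhgap* members, whereas 6 of 8 *Dock* members had higher values. Relative to the median of the epithelial markers, which moves every log2 ratio up by 0.63, the 3 medians all became positive. The same shift put 7701 of 12716 loci higher past 1.5-fold. Values cover all tissues sequenced together, so the shift does not give levels per unit of epithelial RNA. By target, the RhoA class had a median of -0.09, with 18 members lower and 7 higher of 25, again as long as values were not scaled to the epithelial markers. Over all loci 51.8% were lower. The differences were mostly small, with 72% of the RhoA class within 0.2 on the log2 scale, against 71.7% of all loci. The Rac or Cdc42 class was evenly divided, with 12 lower and 12 higher of 24. Summed levels of the RhoA class were 404.7 FPKM in controls and 380.6 FPKM in mutants, and those of all 29 members of the Rac or Cdc42 class were 211.4 and 214.1 FPKM.

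**Figure D2:**
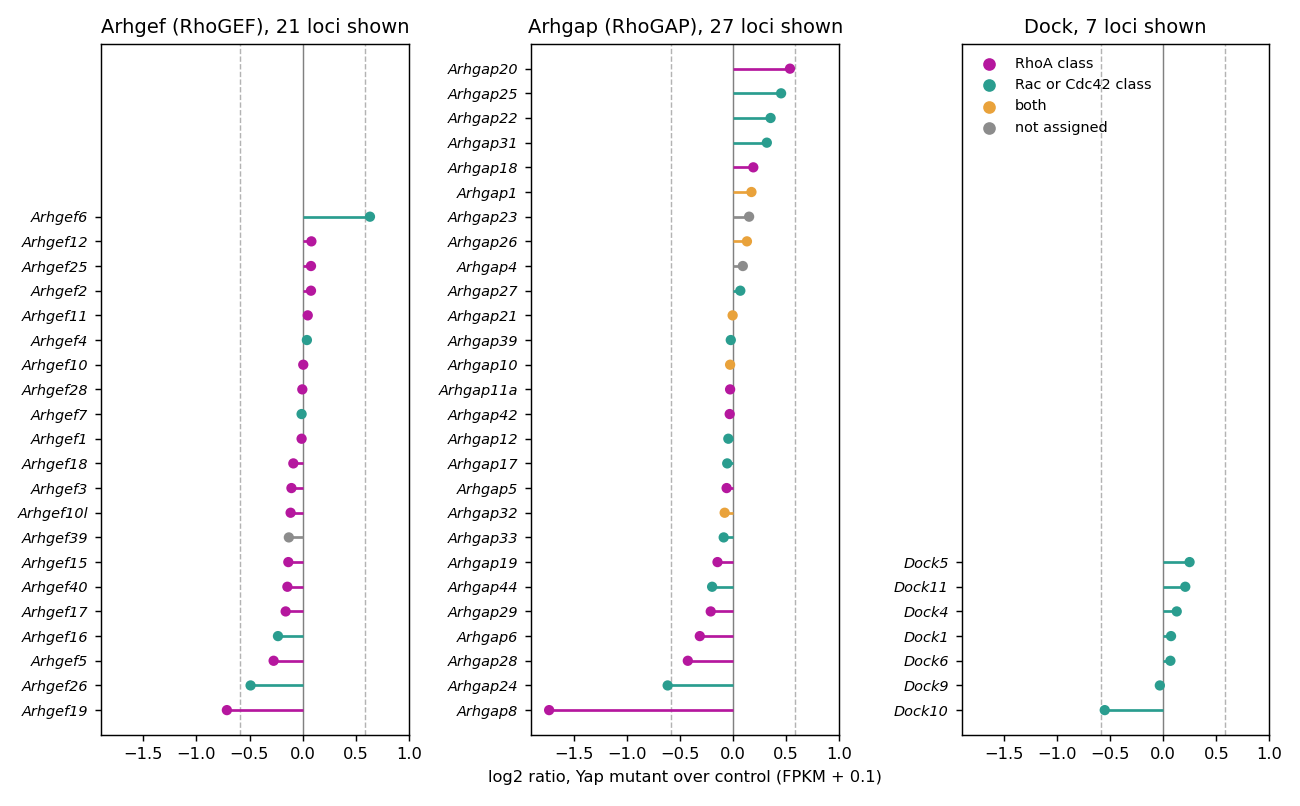
The log2 ratio of *Yap* mutant over control (x axis, from FPKM with 0.1 added) for members whose mean reached 1 FPKM, in 3 panels by family and colored by target GTPase. Dashed lines mark 1.5-fold. *Arhgap8* at -1.73 and *Arhgef6* at 0.63 are the extremes, and all *Dock* members shown lie within the lines.

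Among *Arhgef* members of the RhoA class, the most abundant were nearly level between genotypes. *Arhgef25*, which relays signals from Gq-coupled receptors to RhoA, had the highest level of the family, with 43.8 FPKM in controls and 46.3 FPKM in mutants. *Arhgef2*, the microtubule-bound GEF-H1, read 30.6 and 32.3 FPKM. *Arhgef1*, an RGS-type GEF activated by the G12 and G13 class of G proteins, read 29.5 and 29.3 FPKM. All 3 RGS-type GEFs stayed close to equal, with log2 ratios of -0.01 for *Arhgef1*, 0.05 for *Arhgef11* and 0.08 for *Arhgef12*. *Arhgef40* was slightly lower, at 24.1 against 21.8 FPKM, but only 59.7% of its locus lies inside its RefSeq gene.

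*Arhgef17*, a RhoA-specific GEF associated with actin and singled out by the study, lies at chr7:100869746-100932161 of mm10. It read 22.8 FPKM in controls and 20.4 FPKM in mutants, a log2 ratio of -0.16, and ranked 6 in its family by mean level. Of all loci at or above the minimum, 35.6% differed by at least that much in either direction. That share was not matched for level, and differences past 1.5-fold were rarer from 20 FPKM, where *Arhgef17* lies. Its relatives *Arhgef10* and *Arhgef10l*, which share its domain layout, had log2 ratios of 0.01 and -0.11.

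The ephexin group was the one RhoGEF subfamily of more than 3 members, and all 5 had lower values in mutants on the scale as deposited. For comparison, 51.8% of all loci and 15 of 22 *Arhgef* members were lower, and 5 loci are few. Ephexins are Dbl-type GEFs with a C-terminal SH3 domain, first known for acting downstream of Eph receptors. *Arhgef19*, which activates RhoA and is also called WGEF, lies at chr4:141239584-141257961 and read 13.2 FPKM in controls and 7.98 FPKM in mutants, a log2 ratio of -0.71 and the only one past 1.5-fold. *Arhgef26*, or SGEF, which activates RhoG, read 5.45 and 3.85 FPKM. It stood just inside the 1.5-fold limit, at -0.49. *Arhgef5*, or TIM, read 10.2 and 8.46 FPKM, and *Arhgef15*, which is known from endothelium, read 8.05 and 7.32 FPKM. *Arhgef16* read 3.39 FPKM in mutants, a log2 ratio of -0.23. Together the 5 summed to 40.9 FPKM in controls and 31.0 FPKM in mutants, a ratio of 0.758, while the ratio over all 68 members was 0.977. The locus of *Arhgef15* covers 49.2% of its RefSeq gene. Relative to the median of the epithelial markers only 1 of the 5 stayed lower, *Arhgef19* at -0.08. The other 4 turned higher, *Arhgef26* to 0.14, *Arhgef5* to 0.36, *Arhgef16* to 0.40 and *Arhgef15* to 0.50. This outcome rests on the median of -0.63. Single markers ranged from -2.71 to 0.97, and their summed level had a log2 ratio of -0.17. All ephexins except *Arhgef15*, at -0.13, lay below that summed ratio. A further ephexin gene, *Ngef*, whose symbol lies outside the rule, was barely detected at 0.362 and 0.329 FPKM.

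The sequence before a start of *Arhgef19* is shown because this gene had the largest difference among RhoGEFs. The 1 start that the RefSeq promoter table (GRCm38.p6) gives is internal, and the 120 bases before it, chr4:141244968-141245087 on the plus strand, lie inside the gene. They overlap no exon annotated in GENCODE M21, although the 250 bases before that start touch an exon shared by 3 transcripts of the gene. No copy of the TEAD motif described further on was found in them.
Arhgef19, before the internal start: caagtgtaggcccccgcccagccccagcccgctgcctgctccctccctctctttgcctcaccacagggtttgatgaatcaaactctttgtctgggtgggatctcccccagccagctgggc

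RhoGEFs of the Rac or Cdc42 class included the only member that was higher past 1.5-fold. *Arhgef6*, or alpha-PIX, which binds PAK kinases and GIT proteins at adhesions, lies at chrX:57231485-57338729 and read 2.27 FPKM in controls and 3.58 FPKM in mutants, a log2 ratio of 0.63. Its paralog *Arhgef7*, or beta-PIX, was far more abundant and level, at 22.3 and 22.2 FPKM. *Arhgef6* therefore supplied 9.23% of the summed PIX level in controls and 13.9% in mutants. With 1 FPKM added in place of 0.1, its log2 ratio was 0.49 and no member was higher past 1.5-fold.

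**Figure D3:**
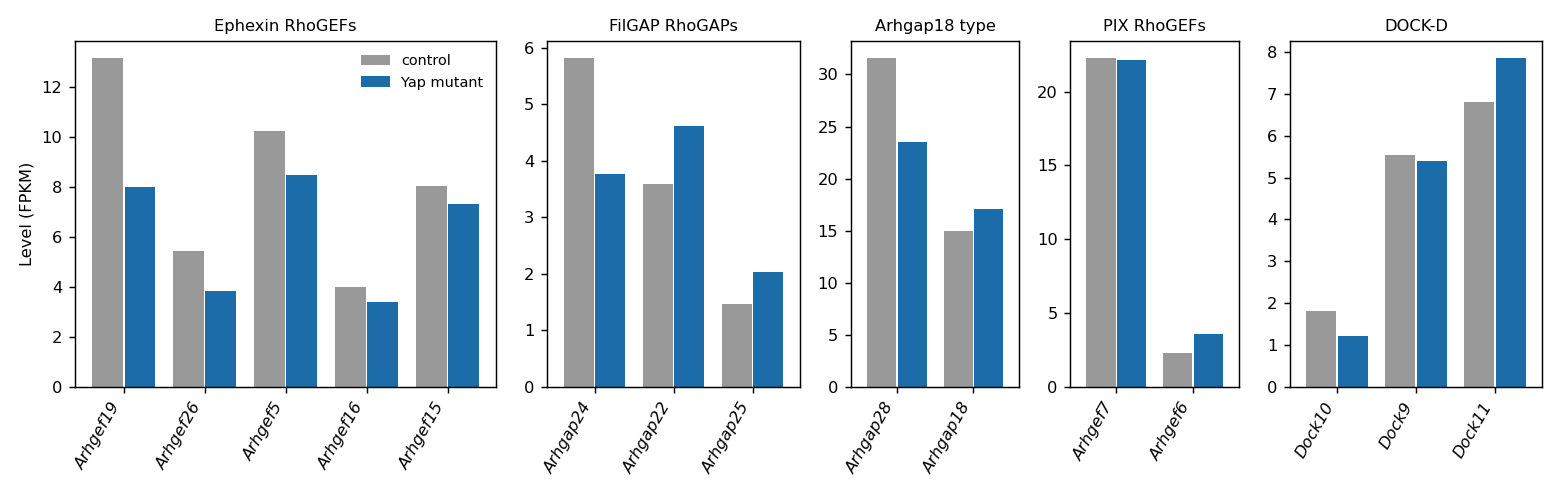
Levels (y axis, FPKM, linear from 0, scale differing between panels) of the members of 5 subfamilies in control (grey) and *Yap* mutant (blue) lungs, 1 value per genotype. All 5 ephexins are lower in mutants as deposited, against 51.8% of all loci (1 of 5 relative to the median of the epithelial markers). Members of the FilGAP, Arhgap18-type and DOCK-D groups lie on both sides as deposited (all are higher relative to that median). *Arhgef7* is level beside a higher *Arhgef6* as deposited.

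RhoGAPs of the RhoA class held the largest difference. *Arhgap8*, also called BPGAP1, lies at chr15:84714629-84775085 and read 3.75 FPKM in controls and 1.06 FPKM in mutants, a log2 ratio of -1.73. Its value in mutants is uncertain, since a second deposited table lists 1.51 FPKM for it, a log2 ratio of -1.26, and it was the only one of 13 members in both tables whose values differed by more than 1%. Its locus also reaches beyond the gene, with 87.4% inside the RefSeq span. *Arhgap1*, the p50RhoGAP that acts on Cdc42 and RhoA and resembles *Arhgap8* in layout, was the most abundant *Arhgap* member and slightly higher, at 38.5 and 43.5 FPKM.

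*Arhgap28* and *Arhgap18*, a related pair of RhoA GAPs that limit stress fibers, went in opposite directions on the scale as deposited. *Arhgap28* read 31.6 FPKM in controls and 23.5 FPKM in mutants, a log2 ratio of -0.42. *Arhgap18*, which the study named only from earlier work in medaka, read 14.9 and 17.1 FPKM, a log2 ratio of 0.19. Neither passed 1.5-fold. The share of *Arhgap28* in the pair's sum went from 67.9% in controls to 57.9% in mutants. Scaled to the epithelial markers *Arhgap28* read 0.21 and *Arhgap18* 0.82, so both were higher on that scale.

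Other abundant RhoA GAPs were lower by small amounts. *Arhgap5*, the p190B RhoGAP, read 24.5 FPKM in controls and 23.5 FPKM in mutants. *Arhgap29*, a RhoA GAP regulated through Rap1 and known from craniofacial development, read 24.0 and 20.7 FPKM. *Arhgap19*, which acts on RhoA during cell division, read 21.8 and 19.7 FPKM. Altogether 8 of the 10 RhoA GAPs had lower values as deposited, against 51.8% of all loci, and their median was -0.10. The exception besides *Arhgap18* was *Arhgap20*, named here after its values were seen, which read 5.54 and 8.08 FPKM and stood just inside the limit at 0.54.

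RhoGAPs of the Rac or Cdc42 class were divided by subfamily member. *Arhgap24*, or FilGAP, a filamin-binding GAP for Rac that ROCK activates, lies at chr5:102481391-102897991 and read 5.82 FPKM in controls and 3.76 FPKM in mutants, a log2 ratio of -0.61. Its locus covers 59.7% of the RefSeq gene, and the rest of the gene is not described here. Its paralogs were higher, with *Arhgap22* at 3.58 and 4.61 FPKM and *Arhgap25* at 1.46 and 2.04 FPKM, neither past 1.5-fold. *Arhgap24* supplied 53.6% of the summed level of these 3 genes in controls and 36.2% in mutants. The log2 ratio was 0.02 relative to the epithelial markers and -0.52 with 1 FPKM added, which is no longer past 1.5-fold. *Arhgap31*, or CdGAP, a GAP for Cdc42 and Rac, read 8.85 and 11.1 FPKM, and its relative *Arhgap30* was below the minimum. The RICH pair, *Arhgap17* and *Arhgap44*, which act at junctions and in membrane traffic, had log2 ratios of -0.05 and -0.20.

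GAPs known for acting on both classes differed little apart from *Arhgap1*. The 5 that reached the minimum had log2 ratios from -0.08 to 0.17. With *Arhgap30*, which was below the minimum, the 6 summed to 68.5 FPKM in controls and 73.1 FPKM in mutants. The 3 GRAF members, which join membrane curvature to GTPase control, ranged from -0.03 to 0.13. They are *Arhgap10* and *Arhgap26* of this class and *Arhgap42*, which was sorted with the RhoA GAPs.

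No *Dock* member passed 1.5-fold. *Dock1*, the DOCK180 protein that activates Rac with ELMO, read 26.6 FPKM in controls and 28.0 FPKM in mutants, and *Dock6*, which acts on Rac and Cdc42, read 18.3 and 19.2 FPKM. The members of the DOCK-A, DOCK-B and DOCK-C groups that reached the minimum all had slightly higher values, up to 0.25 for *Dock5*. The Cdc42-directed DOCK-D group was mixed as deposited, while all its members were higher relative to the median of the epithelial markers. *Dock10* read 1.82 and 1.21 FPKM, a log2 ratio of -0.55 that passed 1.5-fold only with no FPKM added, *Dock9* read 5.53 and 5.40 FPKM, and *Dock11* read 6.80 and 7.86 FPKM. *Dock2* and *Dock8*, best known from leukocytes, were below the minimum, at 0.541 and 0.563 FPKM and at 0.756 and 0.814 FPKM. Of the 7 leukocyte markers found, *Ptprc* was also below the minimum, at 0.552 and 0.535 FPKM, while the other 6 were above it, up to *Tyrobp* at 10.3 and 10.5 FPKM.

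The 11 members below the minimum were 5 *Arhgap*, 3 *Arhgef* and 3 *Dock* loci, with means up to 0.797 FPKM. Besides *Arhgap30*, *Dock2* and *Dock8* they were *Arhgap9*, *Arhgap15*, *Arhgap36*, *Arhgap40*, *Arhgef33*, *Arhgef37*, *Arhgef38* and *Dock3*. *Arhgap36*, a Hedgehog-linked gene, read 0.241 and 0.545 FPKM, and *Arhgap40* read 0.00676 FPKM in controls and was listed at 0 in mutants. *Arhgap9* overlaps *Gli1* on the opposite strand, and reads of the pair could be mixed if strand was not used in counting.

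Summed by role, the RhoA activators and inhibitors were both lower in mutants on the scale as deposited. The 15 RhoA GEFs summed to 234 FPKM in controls and 226 FPKM in mutants, and the 10 RhoA GAPs to 170 and 155 FPKM. The ratio of summed GEF to summed GAP levels was 1.37 in controls and 1.46 in mutants. Without *Arhgap28*, which made up the largest part of the GAP difference, the ratios were 1.69 and 1.72. For Rac and Cdc42, GEFs and DOCKs together summed to 139 and 142 FPKM and GAPs to 72.0 and 72.3 FPKM, with ratios of 1.94 and 1.96. The 6 GAPs known for acting on both classes, among them *Arhgap1*, were in none of these sums. They held 68.5 FPKM in controls and 73.1 FPKM in mutants, so each ratio depends on how they are sorted. All these sums weigh RNA levels alone and hold no information on protein or activity.

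**Figure D4:**
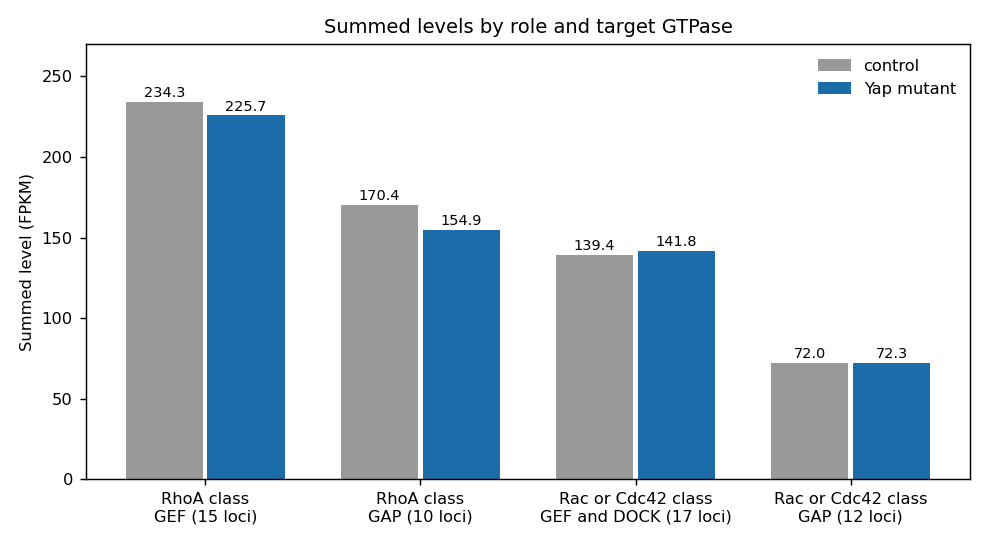
Summed level (y axis, FPKM, linear from 0) of the GEFs and GAPs of the RhoA class and of the GEFs with DOCKs and the GAPs of the Rac or Cdc42 class, in control (grey) and *Yap* mutant (blue) lungs. The RhoA GAPs show the largest gap, 170.4 against 154.9 FPKM. GAPs known for acting on both classes are not included.

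The GTPases and partners around these families were also close to level. Of 18 loci of RhoA, Rac and Cdc42 type GTPases, 14 reached the minimum and 0 passed 1.5-fold, with a median log2 ratio of -0.02. *Cdc42* was the most abundant, at 274 FPKM in controls and 273 FPKM in mutants. *Rhoa* read 231 and 212 FPKM. None of the 3 RhoGDI genes, which hold GTPases in the cytosol, and none of the 3 ELMO genes, the partners of DOCK proteins, passed the limit, and the highest of them were *Arhgdia*, at 206 and 195 FPKM, and *Elmo2*, at 20.8 and 19.7 FPKM. Of 22 effector genes, such as the ROCK and PAK kinases, 0 passed it. RhoGEFs named by other symbols gave 1 lower gene of 31, *Tiam2*, a Rac GEF that read 2.22 and 1.37 FPKM, and 0 higher. The most abundant of them was *Net1*, a RhoA GEF, at 61.0 and 46.0 FPKM. RhoGAPs named by other symbols gave 0 of 19, and *Racgap1*, a GAP needed for cytokinesis, was the highest at 62.9 and 56.9 FPKM. Over all loci 3.3% were lower and 4.44% higher past 1.5-fold, so few calls would fall in lists of these sizes in any case. A pair of *Arhgap* genes stood in the table under older symbols and so fell outside the rule. *Grlf1*, now *Arhgap35* and the p190A RhoGAP, read 28.9 and 26.9 FPKM, and *Hmha1*, now *Arhgap45*, read 8.82 and 9.62 FPKM over a locus that spans many other genes.

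**Figure D5:**
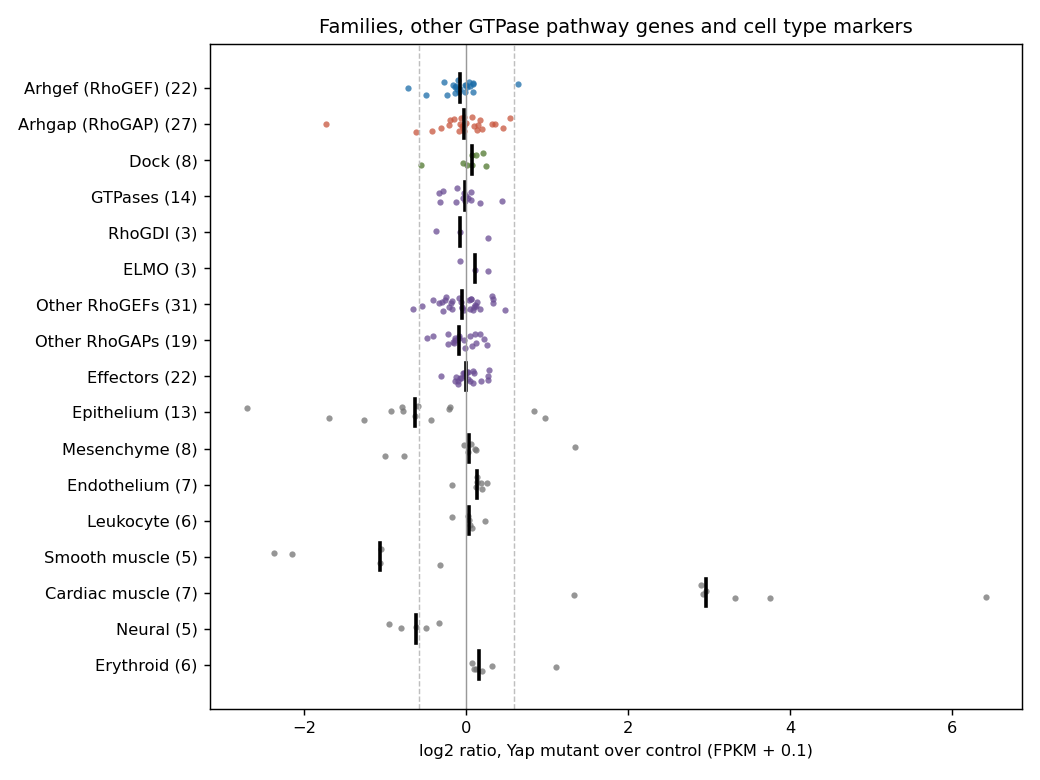
The log2 ratio of *Yap* mutant over control (x axis, from FPKM with 0.1 added) for loci whose mean reached 1 FPKM, 1 point each, in rows for the 3 families, the other GTPase pathway lists and the cell type markers, with the number of loci in parentheses. Black bars are medians and dashed lines mark 1.5-fold. The families and pathway lists center near 0, whereas the epithelial markers center at -0.63 and the cardiac markers at 2.96.

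YAP acts on DNA through TEAD factors, so the promoters of the members were searched for the core TEAD motif, GGAATG, or CATTCC on the other strand. RefSeq (GRCm38.p6) gave 78 promoters, each from 250 bases before to 50 bases after a start, for 50 of 68 members. The motif was present in 10 of them, or 12.8%, against 14.7% of all 32851 promoters. *Arhgef17*, *Arhgap8* and *Arhgap24* had no entry, so their promoters were not searched and nothing can be said here on sites in them. Sites are shown for the ephexin with a match, for *Arhgef6* with 2 matches, and for the most abundant *Arhgap* member and a DOCK with one. Each is given as 26 bases on the gene's strand with the motif in capitals.
Arhgef26, chr3:62338713-62338738, plus strand: ctctcacgacCATTCCcacgcagtgt
Arhgef6, chrX:57338704-57338729, minus strand: ggagtttgtcCATTCCttatCATTCC
Arhgap1, chr2:91653149-91653174, plus strand: tctggcgtcaGGAATGcagcctcctc
Dock6, chr9:21852714-21852739, minus strand: gaccccgcgtCATTCCcgtcttggtt

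The motif began 54 bases before the start of *Arhgef26*, 49 before that of *Arhgap1* and 94 before that of *Dock6*, and 10 and 20 bases after that of *Arhgef6*. *Arhgef26* had a lower value in mutants, *Arhgef6* a higher one, and *Arhgap1* and *Dock6* slightly higher ones, so members with the motif lay on both sides. A match of 6 letters is a description and not a binding site. Promoters of *Dock* genes were rich in G and C, with a median of 70.2%, against 58.5% over all member promoters and 52.7% over all promoters. *Dock* genes were also long, with a median span of 256 kb, against 92.6 kb for *Arhgap* genes, 63.6 kb for *Arhgef* genes and 18.9 kb over all loci.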

How the data were processed

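Whole-lung RNA from 3 control and 3 *Yap* mutant samples was sequenced from stranded paired-end libraries. Per the labels, the authors used TopHat, Cuffdiff and mm10 (version numbers and gene annotation not given in the sources used here). The authors deposited FPKM values, 1 per genotype and locus, in 2 tables, one of 24402 loci and one of 2395 loci that they list as changed; the unit was inferred from the Cuffdiff layout. Their columns of log2 fold change and p-value hold the authors' own comparison and were not used. No column belonged to other samples.

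Log2 ratios were computed with 0.1 FPKM added, for loci whose mean reached 1 FPKM, and described without a test. The calculation was checked on simulated data. Members, lists and target classes were chosen with earlier results of these data known. Named genes are members past 1.5-fold, the 5 highest of each family, *Arhgef17*, *Arhgap18*, described subfamilies, and in other lists those past 1.5-fold and the highest. *Arhgap20*, the members below the minimum, *Yap1*, *Ngef*, *Rhoa* and the older-symbol genes were named outside this rule. Starts had 1 added, since they count from 0, and all 68 loci overlap their own gene in RefSeq (GRCm38.p6). Of these, 11 cover under 80% of it. Use of strand in counting is not stated, and *Arhgap6*, *Arhgef40*, *Dock1* and *Dock6* are among the members that overlap other genes. *Arhgef40*, *Arhgap44* and *Arhgap4* each overlap a gene on their own strand, which use of strand would not separate. A few members that fall under the naming rule are counted in the totals but not reported here. Alternatives were other pseudocounts, filters, folds and scalings, and the second table. Python 3.11.15, numpy 2.4.6, pandas 2.3.3 and matplotlib 3.10.9 were used.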

Additional observations from a re-analysis of the deposited data

How the results depend on the processing

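No paired analysis was possible because the tables give 1 value per genotype, and for the same reason no library could be left out and depth sets no stated limit. Adding 1 FPKM left 0 members higher past 1.5-fold and 2 lower, without *Arhgap24*. With no filter on low values, 3 members were higher, and all loci gave 1016 lower and 1553 higher. A mean of at least 5 FPKM left 1 member lower and 0 higher, against 182 and 217 of all loci. Past a log2 ratio of 0.32, 6 members were lower and 4 higher, against 865 and 1225 of all loci, and at 2-fold 1 and 0, against 163 and 274. Relative to the epithelial marker median, 1 member was lower and 33 were higher, against 101 and 7701 of all loci, and *Arhgap24* turned to 0.016. On that scale the medians were 0.55 for *Arhgef*, 0.60 for *Arhgap*, 0.70 for *Dock*, 0.54 for RhoA, 0.63 for Rac or Cdc42, 0.63 for both and 0.72 for members not assigned; the cause was not tested. Centring on all loci, the second table and no added FPKM left the counts within 1.5 times and the medians within 0.1. The split by level in the report was chosen after seeing the data.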
